A study of Mus musculus with 2 samples.

Results

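Cells of the T and natural killer (NK) lineages were found in the GR1-sorted fraction of 4T1 mammary tumors, 73 of 1726 retained cells from 4T1P tumors and 96 of 3461 from 4T1M tumors, 169 of 5187 in all. 4T1 is a mouse breast carcinoma line grown in BALB/c mice. 4T1P is the parental line, whose tumors do not respond to anti-PD1, and 4T1M is a mutagenized clone derived from it, whose tumors do. Both groups were taken at baseline, without anti-PD1, per the study's methods, from BALB/c mice that the labels give as 6 to 8 weeks old, with 5 mice pooled into 1 droplet library per condition. GR1-bearing cells were selected with an antibody and magnetic beads, and the labels call the sorted cells myeloid. The responsive tumor line is 1 clone and each condition is 1 pool, so line, pool and library cannot be told apart, no test between conditions was possible, and no p-value is given. Every interval below is an exact 95% interval that covers counting error only.

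The members were selected on measured values. A retained cell had 500 to 5000 detected genes and at most 10% of its unique molecular identifiers (UMIs, 1 per captured transcript) from mitochondrial genes. A member then had a UMI of at least 2 of the 7 genes Cd3d, Cd3e, Cd3g, Trac, Trbc1, Trbc2 and Nkg7, under 1.5% of UMIs from S100a8 and S100a9, which mark neutrophils, and under 0.5% from C1qa, C1qb, C1qc and Apoe, which mark macrophages. The T and NK share of retained cells was 4.23% in 4T1P (interval 3.33 to 5.29%) and 2.77% in 4T1M (2.25 to 3.38%). With a mitochondrial limit of 5% it was 2.35% and 0.872%. The members' median mitochondrial share was 5.57% in 4T1P and 5.74% in 4T1M, above that limit, so values under it rest on fewer members. Since the gate was set on GR1, these shares describe what the sort recovered and not how many T cells the tumors held. No member barcode occurred in both libraries, 3 retained barcodes did, and 5 of all deposited barcodes did.

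The T cell receptor joins an alpha and a beta chain, or a gamma and a delta chain, to the CD3 proteins that carry the signal into the cell. CD8 and CD4 are coreceptors that separate killer T cells from helper and regulatory T cells, and Foxp3 is the transcription factor of regulatory T cells. The GR1 antibody binds Ly6G, a protein of neutrophils, and also Ly6C, which monocytes carry and which is likewise known on memory and some naive CD8 T cells. PD1, encoded by Pdcd1, is an inhibitory receptor of activated T cells and the target of the therapy that separates these tumor lines.

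The deposited libraries held 21855657 UMIs in 2947 barcodes for 4T1P and 24303957 in 5004 for 4T1M. The members' summed UMIs were 473855 in 4T1P, with a median of 5605 per cell, and 543138 in 4T1M, with a median of 5552. Of the 4T1P members, 68 of 73 had UMIs of 4 or more of the 7 genes, and in 4T1M it was 87 of 96. Few members stood next to the gene limit: 1 4T1P and 4 4T1M members had just 2 of the 7 genes. Outside it, 7 and 26 cells within the myeloid limits had just 1. The highest S100a8 and S100a9 share of a member was 0.104% in 4T1P and 0.969% in 4T1M, and the nearest cells kept out by that limit, both in 4T1M, began at 25.0%. For C1q and Apoe the highest member stood at 0.206% in 4T1P and 0.247% in 4T1M, against 0.715% and 2.11% in the nearest cells outside.

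The T cell receptor and CD3 genes chose the members, so their levels in members follow from the rule. So do their low levels in other cells within both myeloid limits. In neutrophil-rule and macrophage-rule cells, which were set by other genes, most of them were close to absent, with Cd3d in neutrophil-rule cells as the exception. Trac, the alpha chain constant region, had 257 UMIs in the 4T1P members and none in 612 neutrophil-rule cells, a share of cells with an interval of 0 to 0.601%. In 4T1M, Trac had 266 UMIs in members and 2 in 1686 neutrophil-rule cells. Cd3d, by contrast, had 73 UMIs in 41 of the 612 4T1P and 148 UMIs in 91 of the 1686 4T1M neutrophil-rule cells, while Cd3g had none in either. A UMI of Cd3d alone made no cell a member. Here neutrophil-rule cells are those past the S100 limit alone and macrophage-rule cells those past the C1q and Apoe limit alone. Ms4a4b, a membrane protein of T cells that the rule did not use, was found in 60 of 73 and 84 of 96 members, and Lef1, a transcription factor of naive T cells, in 48 and 74.

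Few members were NK cells, and the rule itself leaves out an NK cell that shows Nkg7 alone among the 7 genes. By a class rule that asks for Ncr1, Klrb1c or Klre1 without Cd3d, Cd3e, Cd3g or Trac and takes cells with Trdc out first, 1 member of each library was an NK cell. Klrb1c had no UMI in any member, and Ncr1, an activating receptor of NK cells, had 6 UMIs in 1 4T1P T cell without coreceptor and none in the 4T1P NK cell, and 7 UMIs in 4T1M, 3 of them in a delta cell. The 4T1M NK cell held 18 UMIs of Il2rb, 7 of Eomes and 4 of Ncr1. The name T and NK therefore holds for the T cells, and by this class rule the NK part of it rests on these 2 cells. One 4T1M cell taken out first for its Trdc had no Cd3e or Trac UMI. It held 58 UMIs of Gzma, 6 of Eomes and 5 of Il2rb.

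Markers of most other cell types were low, which for S100a8, S100a9, C1q and Apoe the membership rule itself required. The 6 markers of type 2 innate lymphoid cells summed to 612 and 228 CPM, and Il17rb and Il5 were at 0 in both libraries. Rora, a gene that T cells also express, gave 191 of 290 and 80 of 124 UMIs, and Gata3 gave 63 and 32. Il1rl1 was read mostly in 6 4T1P T cells without coreceptor, at 31 UMIs, and in 2 4T1M cells with Cd4, at 10. The 8 neutrophil markers summed to 179 CPM, UMIs scaled to the total of the summed cells, in 4T1P, with 6 of 8 detected and Csf3r and Mmp9 at 0, and to 565 CPM in 4T1M, with all 8 detected. S100a9 was the most abundant of them, at 37 UMIs in 26 4T1P cells and 166 UMIs in 67 4T1M cells, of which 1 cell held 44. The neutrophil-rule cells, selected on that gene, stood at 92881 and 73538 CPM of S100a9. The part of neutrophil RNA in the differences between libraries was not tested. The 12 monocyte and macrophage markers summed to 270.1 and 267 CPM, led by Lyz2 in 4T1P and Apoe in 4T1M, the 7 dendritic cell markers to 2 and 1 UMIs, and the 7 B and plasma cell markers to 23 and 35 UMIs, of which Ighm gave 22 and 27.

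In 1 4T1M member the transcripts went against its label. That member held 192 UMIs of Cxcl13, 153 of Mfge8, 82 of Clu, 17 of Fcer2a and 8 of Cr2, while all other 4T1M members together had 0 of each. Cxcl13 is the chemokine that draws B cells into follicles, and these genes are known together from follicular dendritic cells. The same cell had no UMI of Ptprc, the pan-leukocyte gene CD45, and passed the rule with 4 UMIs of Cd3e and 1 of Cd3g. It was singled out after its values were seen, and it counts among the members without a coreceptor UMI. Values over all members that rest on it are given without it, while values outside the CD8 class include it.

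The lineage of the T cells differed between the libraries. Each member was placed by its own transcripts: delta with a Trdc UMI, then CD8 with Cd8a or Cd8b1, CD4 with Cd4, and, where no coreceptor UMI was caught, T without coreceptor. The CD8 class made up 21 of 73 4T1P members, 28.8% (18.8 to 40.6%), and 61 of 96 4T1M members, 63.5% (53.1 to 73.1%). The CD4 class held 26 of 73 members in 4T1P, 35.6% (24.7 to 47.7%), and 12 of 96 in 4T1M, 12.5% (6.63 to 20.8%). In neither class did the intervals of the 2 libraries overlap. No member outside the delta class had UMIs of both coreceptors.

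T cells without a coreceptor UMI numbered 21 and 17, and the delta class 4 and 5. Median depth was 4147 and 4367 UMIs in the cells without a coreceptor UMI against 7088 and 6085 in the CD8 class, for 4T1P and 4T1M respectively. At 1000 UMIs per cell the CD8 share was 15.1% (7.77 to 25.4%) of 73 4T1P cells and 34.7% (25.3 to 45.2%) of 95 4T1M cells, whose intervals just touched, and the CD4 shares were 6.85% and 6.32%. The CD8 excess thus kept its direction at equal depth, whereas the CD4 difference was not detectable there, with 5 and 6 CD4 cells left. The levels of the coreceptor genes themselves, which need no class, were 97.1 and 27.6 CPM for Cd4, a log2 ratio of 4T1M over 4T1P of -1.78 (-2.76 to -0.95). Those of Cd8a were 152 and 276 CPM, a log2 ratio of 0.86 (0.45 to 1.29).

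**Figure D1:**
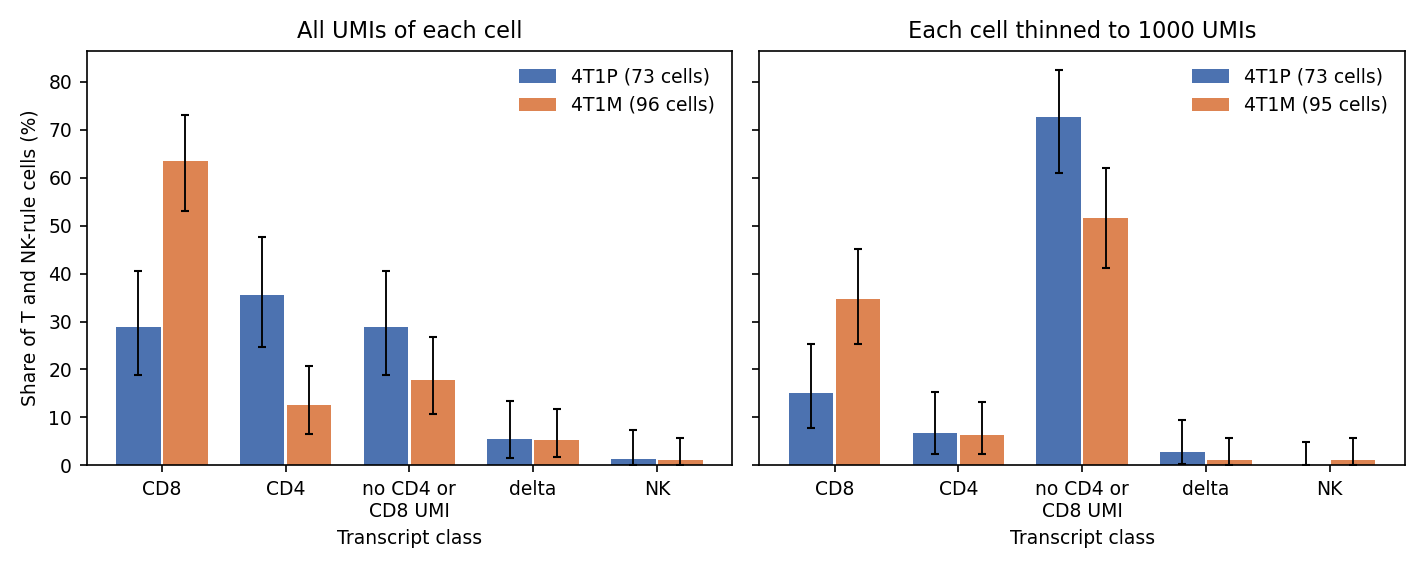
Share of T and NK-rule cells (%, y axis) in each transcript class (x axis) for 4T1P (blue) and 4T1M (orange), with all UMIs (left) and with each cell thinned to 1000 UMIs (right); error bars are exact 95% binomial intervals. The CD8 bar is higher in 4T1M in both panels, 63.5% against 28.8% with all UMIs, and the CD4 bars are 35.6% and 12.5% with all UMIs but 6.85% and 6.32% after thinning.

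Foxp3 was found in more 4T1P than 4T1M members. Foxp3 had 22 UMIs in 8 of 73 4T1P members, 11.0% (4.85 to 20.5%), and 5 UMIs in 2 of 96 4T1M members, 2.08% (0.253 to 7.32%). In the CD4 class it was found in 5 of 26 4T1P cells and in 0 of 12 4T1M cells, which allows a share of cells with a UMI of up to 25.0% (3 cells). In T cells without a coreceptor UMI it was found in 3 of 21 and 2 of 17 cells. The 8 Foxp3 cells of 4T1P held 100 of the library's 148 member UMIs of Tnfrsf4, the costimulatory receptor OX40. They held 90 of 151 of Ikzf2, the factor Helios, and 49 of 92 of Il2ra, the high-affinity interleukin 2 receptor chain. Of Ctla4 (60 of 156), Icos (60 of 170) and Tnfrsf18 (40 of 91) they held smaller shares. The 2 Foxp3 cells of 4T1M held 1 UMI of Tnfrsf4 and 1 of Il2ra. They also held 11 UMIs of Icos, 10 of Ctla4, 8 of Itgae, 7 of Tnfrsf18 and 5 of Ikzf2. In the 4T1P CD4 class Ctla4, an inhibitory receptor, was found in 15 of 26 cells, and in 4 of 12 in 4T1M. In T cells without a coreceptor UMI Ctla4 stood at 259 and 726 CPM, and 1 4T1M cell held 35 of its 58 UMIs there. The Ctla4 log2 ratio of 0.04 outside the CD8 class includes that cell. Foxp3 lies on chrX:7573644-7595245 (GRCm38) on the plus strand. Across the 16 coreceptor and lineage genes, 9 had at least 20 UMIs, 0 of them were at least 2-fold higher in 4T1M, and Cd4, Foxp3, Ikzf2 and Gata3, the factor of type 2 helper cells, were at least 2-fold lower, beside 2.49% and 5.37% of all 5573 genes with that many UMIs.

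The delta class, set by Trdc alone, differed cell by cell. One 4T1P and 2 4T1M cells of it also held Trac, at 6, 5 and 11 UMIs against 2, 1 and 2 of Trdc, so their receptor genes do not place them as gamma-delta cells. Of the 4 4T1P delta cells, 1 held 51 UMIs of Il17a, the cytokine of interleukin 17-producing gamma-delta T cells, with 16 of Il2ra and 4 of the gamma chain gene Tcrg-C1. Another held 1 UMI of Il17a with 12 of Trdc and 2 of Tcrg-C1. Il17a was not found in the 5 4T1M delta cells or in any other member. None of the 4T1P delta cells had a UMI of Ccr7, a lymph node homing receptor, and 3 of the 5 4T1M cells had one, 2 of them the cells with more Trac than Trdc. One 4T1M delta cell held 58 UMIs of Gzma and 46 of Ccl5, a granzyme and a chemokine of cytotoxic cells.

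Which gene of the GR1 antigens these T cells transcribed was then examined. Ly6c1 (chr15:75044018-75048830, minus strand), Ly6c2 (chr15:75108158-75111970, minus strand) and Ly6g (chr15:75155240-75159126, plus strand) are neighboring protein-coding genes on GRCm38. Transcripts of Ly6c1 and Ly6c2 were 83.6% identical over their aligned bases, but 35 of 411 windows of 90 bases in the last 500 bases of Ly6c1 were also in Ly6c2 and none was in Ly6g, so most reads of the 3′ end can be told apart. RefSeq places the start of Ly6g further downstream than the position above, so the end of its window lies within that span. The 250 bases before the RefSeq start site of each, from the RefSeq promoter table of GRCm38.p6, are shown. They were chosen because Ly6c1 and Ly6c2 were both read in members and Ly6g in none. Capitals mark the run of 12 bases that all 3 windows hold, at -151, -160 and -107 relative to the start site in the order shown. Of all promoter windows of this length, 4 of 27025 hold it on either strand, the other being that of Ly6a2.
Ly6c1, chr15:75048838-75049087, minus strand: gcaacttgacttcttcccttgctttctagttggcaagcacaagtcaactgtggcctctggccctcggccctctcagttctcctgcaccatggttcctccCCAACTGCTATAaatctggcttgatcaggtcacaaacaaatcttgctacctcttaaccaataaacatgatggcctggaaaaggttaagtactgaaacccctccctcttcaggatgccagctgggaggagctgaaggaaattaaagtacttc
Ly6c2, chr15:75111972-75112221, minus strand: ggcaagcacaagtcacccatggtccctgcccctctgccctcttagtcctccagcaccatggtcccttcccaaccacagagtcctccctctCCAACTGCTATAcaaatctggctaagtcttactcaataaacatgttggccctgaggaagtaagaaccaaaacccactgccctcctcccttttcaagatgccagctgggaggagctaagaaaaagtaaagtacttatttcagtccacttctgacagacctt
Ly6g, chr15:75155011-75155260, plus strand: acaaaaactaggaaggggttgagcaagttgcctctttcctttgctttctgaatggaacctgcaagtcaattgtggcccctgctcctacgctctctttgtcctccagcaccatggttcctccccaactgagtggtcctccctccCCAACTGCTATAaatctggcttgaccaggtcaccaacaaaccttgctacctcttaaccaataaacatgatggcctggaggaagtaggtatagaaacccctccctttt
The Ly6c1 and Ly6c2 windows were 72.2% identical over 227 aligned positions, and those of Ly6c1 and Ly6g 75.1% over 229. A shared run is a description of these windows and names no factor.

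Ly6g was not found in the members. It had 0 UMIs in both libraries, which allows up to 6.33 CPM in 4T1P and 5.52 CPM in 4T1M (3 UMIs), against 308 CPM in 4T1P and 229.9 CPM in 4T1M neutrophil-rule cells, where 15.8% and 16.1% of cells had a UMI. Ly6c2 had 45 UMIs in 12 of 73 4T1P members and 126 UMIs in 45 of 96 4T1M members. Its levels, 95.0 CPM (69.3 to 127) and 232 CPM (193 to 276), gave a log2 ratio of 1.28 (0.79 to 1.81). Ly6c1 had 43 UMIs in 12 cells and 103 UMIs in 42 cells, 90.7 and 190 CPM, a log2 ratio of 1.05 (0.54 to 1.61).

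Members were above the neutrophil-rule cells for both genes. Ly6c2 stood at 34.8 and 35.1 CPM in 4T1P and 4T1M neutrophil-rule cells, and the log2 ratio of members over them was 1.45 (0.90 to 1.99) in 4T1P and 2.72 (2.40 to 3.04) in 4T1M. In macrophage-rule cells it stood at 1.73 and 16.6 CPM. Retained cells placed by B cell genes came close to the members in 4T1M, at 164 CPM of Ly6c1 (113 to 231) and 194 CPM of Ly6c2 (138 to 265), in 4 of 26 cells. The share of neutrophil-rule cells with a Ly6c2 UMI was 4.90% and 6.47%, at median depths of 3055 and 2958 UMIs, against 16.4% and 46.9% of the deeper members.

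**Figure D2:**
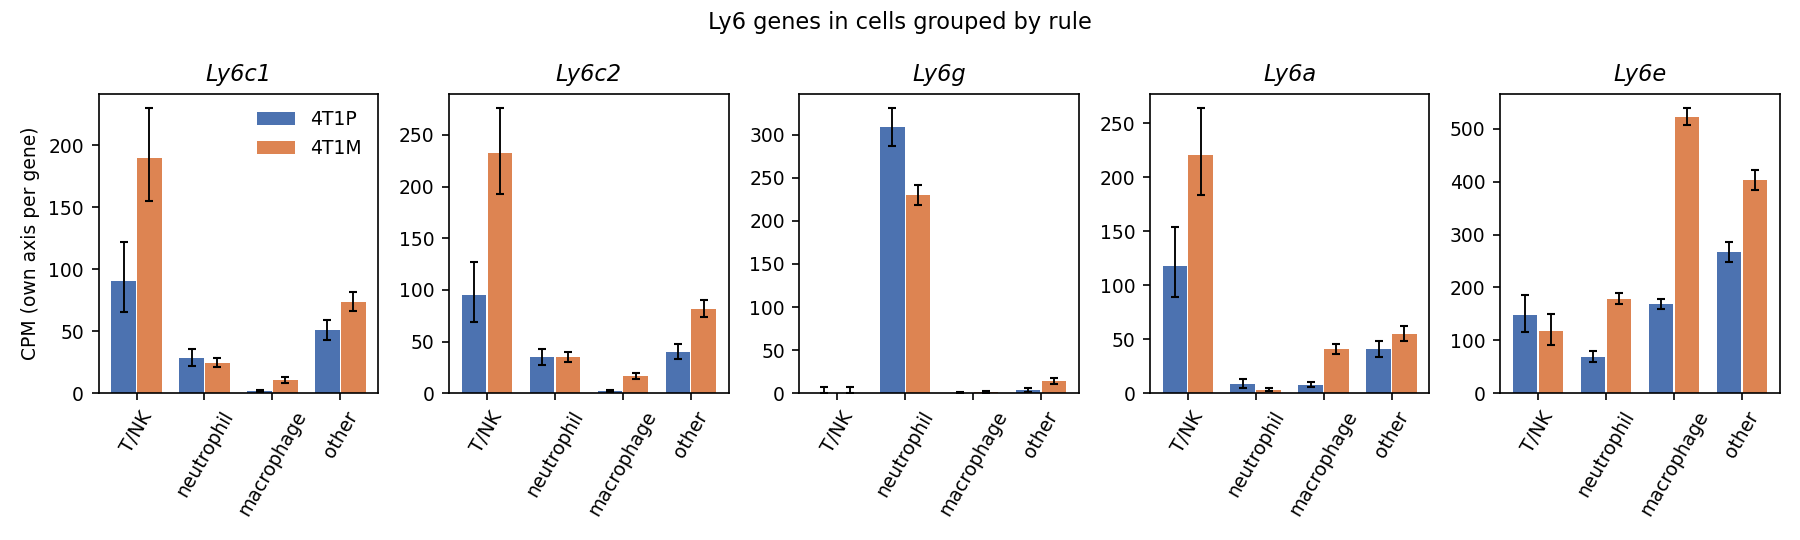
CPM (y axis, its own range per gene) of 5 Ly6 genes in T and NK-rule, neutrophil-rule, macrophage-rule and other retained cells (x axis) of 4T1P (blue) and 4T1M (orange); error bars are exact 95% Poisson intervals. Ly6g is at 0 in T and NK-rule cells, whereas Ly6c1 and Ly6c2 are highest there among the 4 groups drawn, in both libraries.

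Most Ly6c transcripts lay in the CD8 class, 51 of 88 UMIs in 4T1P and 165 of 229 in 4T1M. That class also held 182617 of 473855 and 369095 of 543138 of all member UMIs. By level, Ly6c2 stood at 153 and 249 CPM in the CD8 class and at 0 and 271 CPM in the CD4 class. It stood at 152 and 125 CPM in T cells without a coreceptor UMI, and at 0 and 300 CPM in the delta class. A UMI of Ly6c1 or Ly6c2 was found in 17 of 73 4T1P members, 23.3% (14.2 to 34.6%), and in 52 of 96 4T1M members, 54.2% (43.7 to 64.4%). Of these cells 11 of 17 and 44 of 52 were CD8 cells. Within the CD8 class the shares were 11 of 21, 52.4% (29.8 to 74.3%), and 44 of 61, 72.1% (59.2 to 82.9%), whose intervals overlap. At 1000 UMIs per cell they were 23.8% of 21 and 25.0% of 60 CD8 cells, so no difference was detectable within CD8 cells at that depth. The 4T1M log2 ratio of Ly6c2 within the CD8 class was 0.68 (0.08 to 1.37), smaller than the 1.28 over all members, and outside the CD8 class it was 1.72 (0.86 to 2.68).

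Outside the CD8 class, Ly6c transcripts were in few cells, with 1 to 22 UMIs each. In 4T1P 6 of 52 such members had them and in 4T1M 8 of 35. In the CD4 class 2 of 26 4T1P cells held 5 UMIs in all, and 2 of 12 4T1M cells held 33. One 4T1M CD4 cell had 22 UMIs of the pair, the most of any member. Both genes were read together in 7 of 17 and 35 of 52 positive cells.

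**Figure D3:**
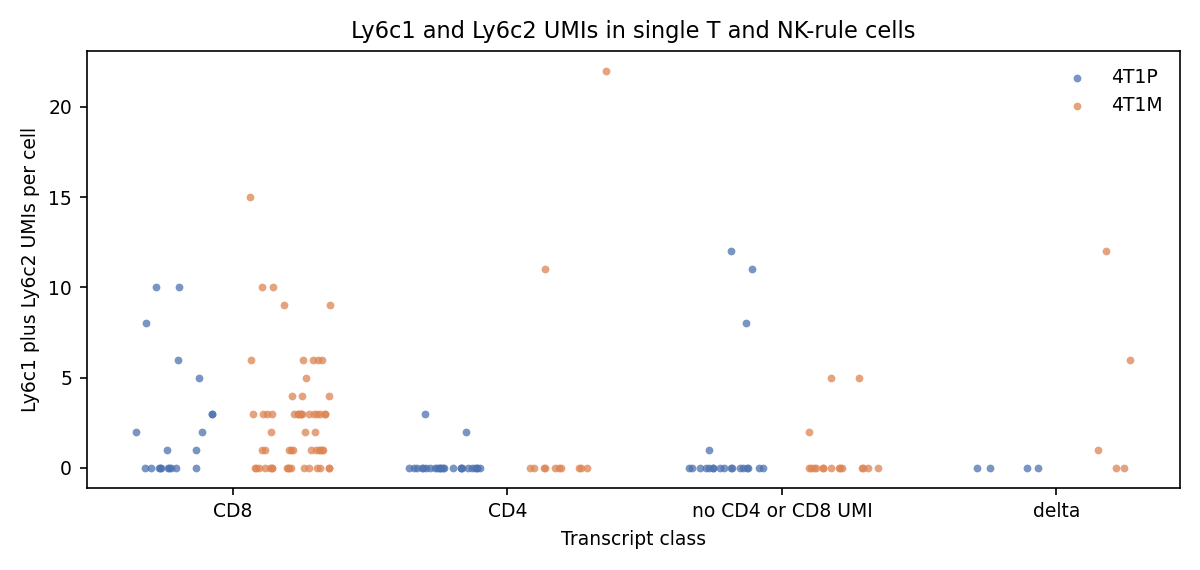
Ly6c1 plus Ly6c2 UMIs (y axis) in each T and NK-rule cell other than the 2 NK cells, by transcript class (x axis) and library (4T1P blue, 4T1M orange, points spread sideways for sight). CD8 cells hold most of the positive cells, 11 of 17 in 4T1P and 44 of 52 in 4T1M, and the highest cell, with 22 UMIs, is a 4T1M CD4 cell.

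Ly6a and Ly6e, relatives of the same chromosome 15 family, behaved differently. Ly6a, the protein Sca-1 of activated T cells, had 56 UMIs in 10 4T1P members, and the highest cell held 28. It had 120 UMIs in 25 4T1M members, a log2 ratio of 0.90 (0.43 to 1.39), and 1.47 without the highest cell of each library. With a mitochondrial limit of 5%, which left fewer members, its direction turned, to -0.37. Ly6e stood at 148 and 118 CPM, a log2 ratio of -0.33 (-0.84 to 0.18) that includes 0, and 0.20 with the mitochondrial limit of 5%. Within the CD8 class its log2 ratio was -1.32 (-2.08 to -0.58) and outside it 0.78 (0.06 to 1.51), where 1 4T1M delta cell held 29 of 35 UMIs. Of the 8 Ly6 genes listed, 4 reached 20 UMIs.

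CD8 cells with and without a Ly6c1 or Ly6c2 UMI were then set side by side, as a description of cells within a library. Cells with one numbered 11 and 44, at median depths of 7026 and 6373 UMIs, and cells without one 10 and 17, at 9602 and 5548. The 44 4T1M cells with one held 99 UMIs of the neutrophil marker S100a9, and 44 of these lay in 1 cell. Of 11 naive and memory genes with at least 20 UMIs in the class, 7 were higher in cells with Ly6c in both libraries. Among them were Ccr7, Lef1, Tcf7, Klf2, Il7r and Bcl2. Cd44, a protein of antigen-experienced cells, Il2rb, Id2 and S1pr1 were lower in both, though S1pr1 by little in 4T1P, at 136 and 138 CPM. Over all 3765 genes of the class, 22.7% were higher in both libraries and 36.7% lower in both.

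Il7r, the interleukin 7 receptor that maintains naive and memory T cells, stood at 495 CPM with Ly6c and 118 CPM without it in 4T1P, and at 533 and 147 CPM in 4T1M. Of 15 interferon-stimulated genes, 10 were higher with Ly6c in both libraries and 1, Zbp1, was lower in both, beside 22.7% and 36.7% of all genes. Isg15 stood at 74.2 against 19.7 CPM in 4T1P and 149.6 against 42.1 CPM in 4T1M, where 1 cell held 28 of the 41 UMIs of the cells with Ly6c.

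Checkpoint genes differed in direction from these. Of 8 such genes 5, Pdcd1, Ctla4, Lag3, Havcr2 and Entpd1, were lower in CD8 cells with Ly6c in both libraries, and 0 were higher in both, beside 36.7% and 22.7% of all genes. Pdcd1 had 0 UMIs in the 11 4T1P cells with Ly6c and 20 in the 10 without it, and 6 UMIs in 1 of 44 against 13 in 4 of 17 cells in 4T1M. Ctla4 stood at 37.1 against 334 CPM in 4T1P and 76.6 against 242 CPM in 4T1M. There 12 of 44 cells with Ly6c and 4 of 17 without it had a Ctla4 UMI, and 1 of the latter held 13 of their 23 UMIs. Mki67, a protein of dividing cells, had 0 against 61 UMIs in 4T1P and 1 against 10 in 4T1M. These CD8 cells without Ly6c were few, and their 61 Mki67 UMIs lay in 3 cells.

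**Figure D4:**
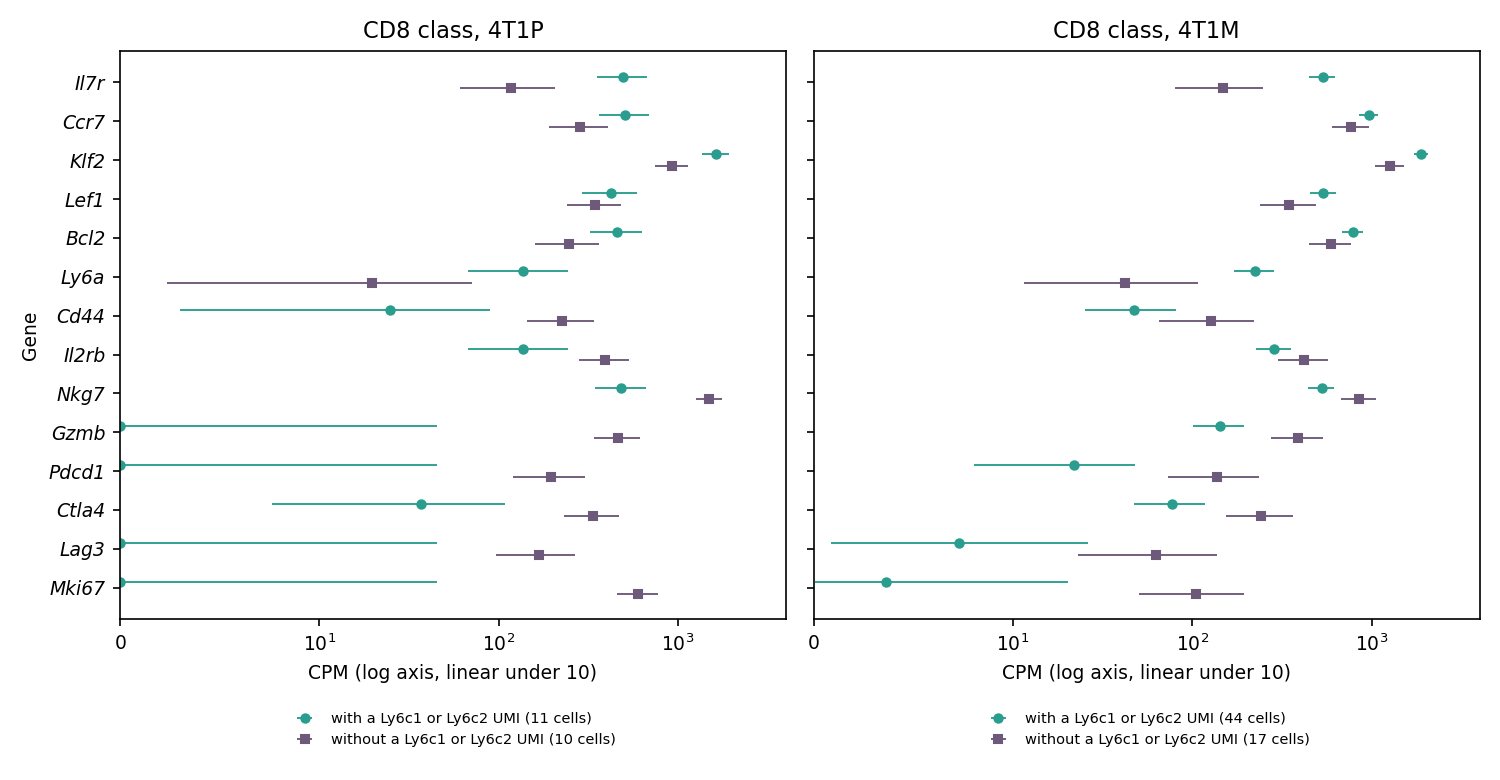
CPM (x axis, logarithmic above 10) of 14 genes in CD8 cells with (circles) and without (squares) a Ly6c1 or Ly6c2 UMI, in 4T1P (left) and 4T1M (right), with exact 95% Poisson intervals; the genes were chosen after their values were seen. Il7r, Klf2 and Ly6a lie to the right with Ly6c in both libraries, and Cd44, Nkg7, Gzmb, Pdcd1, Ctla4 and Mki67 to the left.

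The summed members of the 2 libraries were compared across all genes. Of 5573 genes with at least 20 UMIs over both, 139 (2.49%) were at least 2-fold higher in 4T1M and 299 (5.37%) at least 2-fold lower, with 0.5 UMIs added to each sum. The median log2 ratio was -0.09. That split depends on scaling: 31.7% of the genes past 2-fold were higher by total UMIs, 46.9% by TMM factors and 58.7% by DESeq2 size factors, which move every log2 ratio by 0.10 and 0.17. Within the CD8 class, 172 of 3765 genes (4.57%) were at least 2-fold higher and 285 (7.57%) lower, with a median of -0.06. The lists are read against these shares.

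**Figure D5:**
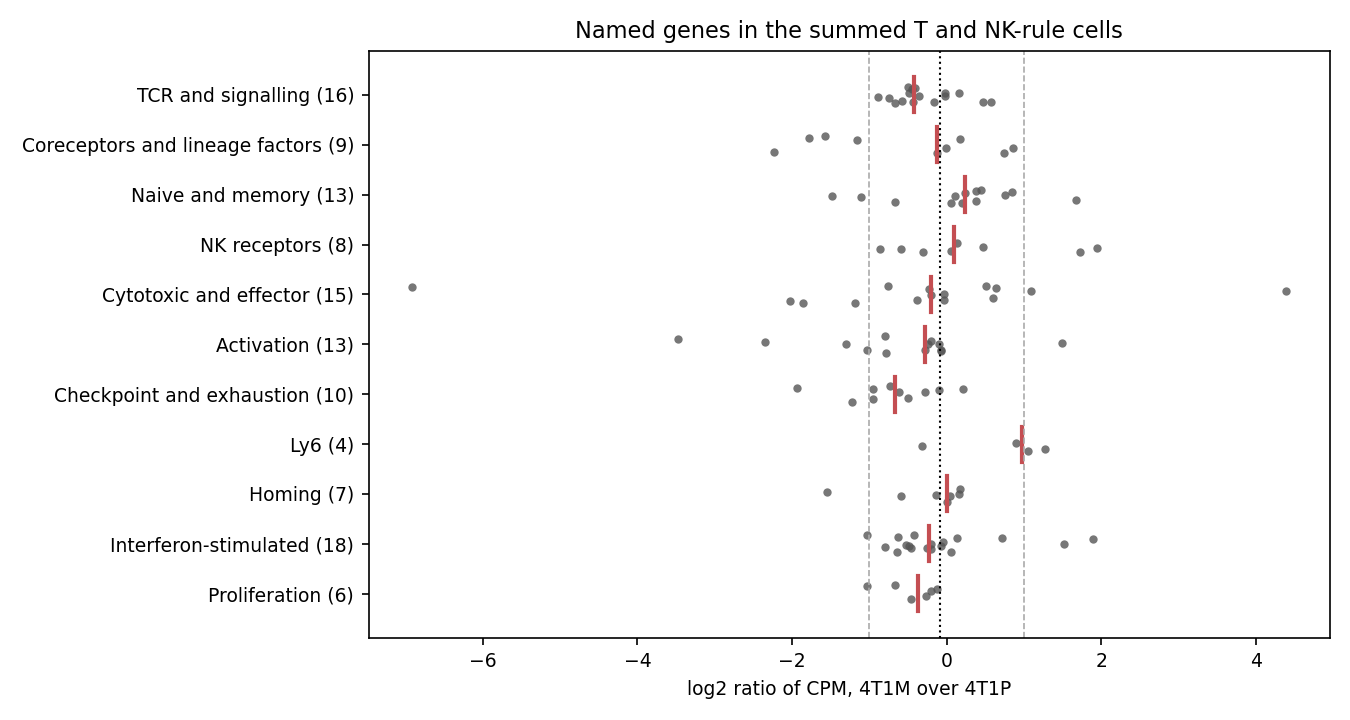
Log2 ratio of CPM, 4T1M over 4T1P (x axis), of each named gene with at least 20 UMIs in the summed T and NK-rule cells (points), by gene list with the number of genes (y axis); red bars are list medians, the dotted line is the median of all 5573 genes and the dashed lines mark 2-fold. The Ly6 list has the highest median, 0.97 over 4 genes, and the checkpoint list the lowest, -0.67 over 10.

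Receptor signalling genes differed by less than 2-fold. All 16 had at least 20 UMIs, and 13 were below 0, with a median log2 ratio of -0.42. Past 2-fold were 0 in either direction, beside 2.49% higher and 5.37% lower of all genes. Cd2, an adhesion receptor, stood at 344 and 186 CPM, a log2 ratio of -0.88 (-1.26 to -0.52). Txk, a T cell kinase, stood at 401 and 556 CPM, a log2 ratio of 0.47 (0.21 to 0.74). Among the genes that chose the members, Cd3g stood at 950 and 678 CPM, which is given as a description.

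Naive and memory T cell genes tended to be higher in 4T1M, below 2-fold for most. Of 13 genes 10 were above 0, with a median log2 ratio of 0.24, and Id3 was the one past 2-fold, while Cd44 and Itgae were lower. Ccr7, the receptor that guides T cells into lymph nodes, had 216 UMIs in 50 4T1P members and 446 in 76 4T1M members, a log2 ratio of 0.85 (0.61 to 1.09), and 1.25 within the CD8 class. Bcl2, a survival factor, stood at 390 and 661 CPM, a log2 ratio of 0.76 (0.50 to 1.02). Cd44 stood at 148 and 68.1 CPM, a log2 ratio of -1.11 (-1.73 to -0.52).

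Of the activation genes 4 were at least 2-fold lower in 4T1M and 1 was higher, beside 5.37% and 2.49% of all genes. The 4 are receptors known also from regulatory T cells. Of 13 genes 12 had a log2 ratio below 0, several of them near the median of all genes, such as Junb and Myc. The TMM shift of 0.10 takes Junb and Myc to 0 or above. Fos stood at -0.08 with the Cxcl13 cell and at -0.45 without it. The list median was -0.28, or -0.45 without the Cxcl13 cell, and -0.43 in the CD8 class. Outside that class it was 0.0058, with the Cxcl13 cell included. Il2ra, Tnfrsf4, Icos and Tnfrsf18, the receptor GITR, were these 4. Members without a Foxp3 UMI held 43 UMIs of Il2ra in 4T1P and 8 in 4T1M. For Tnfrsf4 these were 48 and 32, for Icos 110 and 68, and for Tnfrsf18 51 and 44. The part of Foxp3 cells in the differences was not tested. Without the Cxcl13 cell, which held no Tnfrsf18 UMI, Tnfrsf18 stood at -0.99, just short of 2-fold. Il2ra had 92 UMIs in 21 4T1P cells and 9 UMIs in 9 4T1M cells, a log2 ratio of -3.48 (-4.72 to -2.56). Within the CD8 class Il2ra had 4 and 6 UMIs, so that difference lay outside it. Icos, a costimulatory receptor, stood at 359 and 145 CPM over all members, and its log2 ratio within the CD8 class was -1.17. Egr1, an early response gene, was the one past 2-fold above, at 38 and 124 UMIs, and 62 of the 124 lay in the Cxcl13 cell, without which its log2 ratio was 0.54. Cd69, the early activation marker, stood at 781 and 663 CPM and was found in 64 of 73 and 70 of 96 cells.

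The median log2 ratio of 10 checkpoint and exhaustion genes was -0.67. Of them 2 were at least 2-fold lower in 4T1M and 0 higher, beside 5.37% and 2.49% of all genes. These were Lag3 and Entpd1, the ectonucleotidase CD39, and without the Cxcl13 cell also Cd200, at -1.36 against -0.73 with it. Pdcd1 had 34 UMIs in 13 of 73 4T1P members and 20 UMIs in 6 of 96 4T1M members, 71.8 and 36.8 CPM, a log2 ratio of -0.95 (-1.84 to -0.12). Ctla4 stood at 329 and 215 CPM, a log2 ratio of -0.61 (-0.97 to -0.26). Tox, a factor of exhausted T cells, stood at 139 and 71.8 CPM, a log2 ratio of -0.95 (-1.57 to -0.36). Havcr2, the receptor TIM-3, had 13 and 14 UMIs, in 6 cells of each library, a log2 ratio of -0.09 (-1.29 to 1.12). Tigit had 2 UMIs in each library, too few for a ratio.

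Within the CD8 class 5 of 8 checkpoint genes were at least 2-fold lower in 4T1M, beside 7.57% of all genes of that class, and the median was -1.10. These were Pdcd1, Lag3, Tox, Entpd1 and Vsir, of which Vsir stood at -0.74 without the highest cells, and Pdcd1 and Vsir fall short of 2-fold with the DESeq2 shift of 0.17 taken from all members. There Pdcd1 was found in 5 of 21 4T1P and 5 of 61 4T1M cells. Outside the CD8 class the median of 6 such genes was 0.15. The intervals of most single genes of this list were wide, and Lag3 rested on 5 and 4 cells in all.

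Cytotoxic and effector genes had no common direction, and most lay in a handful of cells. Of 15 genes 2, Gzma and Ccl5, were at least 2-fold higher in 4T1M and 4, Gzmk, Prf1, Il17a and Areg, at least 2-fold lower. Of all genes 2.49% were higher and 5.37% lower by that much. The list median was -0.20, with -0.89 in the CD8 class and 0.77 outside it. Gzma had 11 UMIs in 2 4T1P cells and 276 in 4 4T1M cells, with 215 in 1 cell. Ccl5 had 194 UMIs in 9 cells and 475 in 20 cells, with 3 cells holding 74.2% and 53.3%. Gzmb, the granzyme of activated killer cells, had 54 UMIs in 6 cells and 94 in 10.

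Perforin and Xcl1 pointed the other way. Prf1, which forms the pore through which granzymes enter, had 44 UMIs in 10 4T1P cells and 22 UMIs in 15 4T1M cells, a log2 ratio of -1.18 (-2.01 to -0.43), and of -1.96 in the CD8 class. Xcl1, a chemokine that recruits cross-presenting dendritic cells, had 90 UMIs in 6 cells and 61 in 11. Ifng, the gene of interferon gamma, had 24 and 27 UMIs in 10 cells each, a log2 ratio of -0.03 (-0.88 to 0.83). Nkg7, a granule protein that the rule used, was found in 27 of 73 and 55 of 96 members.

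Of the 8 NK receptor genes with 20 UMIs, Fcer1g and Tyrobp were at least 2-fold higher in 4T1M and 0 were lower. The shares over all genes were 2.49% higher and 5.37% lower. Fcer1g and Tyrobp encode signalling adaptors that myeloid cells also express. Fcer1g had 15 UMIs in 9 4T1P cells and 68 in 22 4T1M cells, a log2 ratio of 1.95 (1.16 to 2.90), and in the CD8 class 2 and 40 UMIs. Tyrobp had 15 UMIs in 9 cells and 58 in 12, a log2 ratio of 1.72 (0.92 to 2.68). Klrd1, the CD94 chain of NK receptors that CD8 T cells also use, was found in 15 and 35 members, at 118 and 164 CPM.

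Of 18 interferon-stimulated genes 2, Isg15 and Rsad2, were at least 2-fold higher in 4T1M, beside 2.49% of all genes. Gbp4, a guanylate-binding protein, was at least 2-fold lower, beside 5.37% of all genes. Below 0 were 13 genes, and the median was -0.23. It was -0.02 in the CD8 class and -0.46 outside it, where the median of all genes was -0.03. Isg15 had 21 UMIs in 17 4T1P cells and 70 in 21 4T1M cells, of which 1 cell held 28.

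Homing receptors were past 2-fold only for Ccr2, a monocyte and T cell chemokine receptor, at 34 and 13 UMIs in 9 and 6 cells. Of 7 genes 1 was at least 2-fold lower in 4T1M and 0 were higher, beside 5.37% and 2.49% of all genes. The list median was 0.01. Cxcr6, a receptor of tissue-resident T cells, stood at 67.5 and 68.1 CPM, a log2 ratio of 0.01 (-0.71 to 0.74). Ccr9 fell short of 20 UMIs, with 2 UMIs in 2 4T1P cells and 16 in 10 4T1M cells, all of the latter CD8 cells.

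Proliferation transcripts were in few cells of each library. Mki67 had 68 UMIs in 6 4T1P cells, 45 of them in 1, and 38 UMIs in 6 4T1M cells, 24 of them in 1. Of the 6 genes with at least 20 UMIs 6 were below 0, with a median of -0.37. Mki67 alone was at least 2-fold lower, beside 5.37% of all genes. In the CD8 class the median was -1.92 over 5 genes. Outside it the median was 1.91, but there 1 4T1M delta cell held 24 of 27 Mki67, 20 of 23 Top2a and 11 of 11 Birc5 UMIs, and of the Mki67 UMIs 61 of 68 lay in the CD8 class in 4T1P but 11 of 38 in 4T1M.

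By the rule for the most changed abundant genes, the 10 highest and 10 lowest log2 ratios were taken among genes with at least 200 CPM in a library. The highest were Cxcl13 and Mfge8, each read in a single 4T1M cell, the one described above. Gzma, S100a9, Cxcl2, Egr1, Ly6c2, Dusp2, Ccl5 and Klhl6 followed. Cxcl2, a neutrophil-attracting chemokine, had 43 UMIs in 31 4T1P cells and 186 in 70 4T1M cells, of which 1 cell held 78. Dusp2, a phosphatase of activated lymphocytes, was spread over 34 and 71 cells, at 253 and 545 CPM, a log2 ratio of 1.10 (0.79 to 1.42). Its log2 ratio was 0.39 within the CD8 class and 1.80 outside it.

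The lowest were Spp1, Tnfrsf4, AY036118, Ikzf2, Rora, Icos, Lgals1, S100a10, Ifitm2 and Gbp4. Spp1, osteopontin, had 133 UMIs in 17 4T1P cells, 107 of them in 1, and 28 UMIs in 19 4T1M cells. Lgals1, galectin 1, a gene of activated T cells and other cells, stood at 709 and 293 CPM, a log2 ratio of -1.27, and S100a10 at 559 and 250.4 CPM. Rora stood at 403 and 147 CPM over all members. Its direction turned within the CD8 class, to a log2 ratio of 1.13 (0.18 to 2.34). Those of Ikzf2, at 0.75 (-0.43 to 2.27), and Tnfrsf18, at 0.80 (-0.24 to 2.11), were above 0 there with intervals that include it, and Ikzf2 stood at 0.21 without the highest cells.

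The genes past 2-fold did not all rest on single cells. Without the cell highest for each gene in each library, 120 of the 139 genes that were higher were still past 2-fold in that direction, and 267 of the 299 that were lower. Among the named genes, Spp1 stood at -0.43, Tnfrsf18 at -0.91, Mki67 at -0.89, Ifitm2 at -0.84 and Egr1 at 0.66 then, no longer past 2-fold, and Prf1 fell just short of it. Gbp4 was still past it, at -1.01. Leaving out only the Cxcl13 cell, which held none of the 92 Gbp4 UMIs of 4T1M, gave -0.99. The Ly6c2 log2 ratio without the highest cells was 1.49, that of Tnfrsf4 -3.16 and that of Pdcd1 -1.22.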

How the data were processed

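The deposited files held counts of UMIs per gene and barcode, which the authors made with Cell Ranger on mm10. The submitters' processing notes name version 4.0.0 and the study's methods another. The labels give 5 mice per library and ages of 6 to 8 weeks, where the study's text gives another number and other ages. Barcodes with 500 to 5000 genes and at most 10% mitochondrial UMIs were retained, as in the study's methods, and no doublets were removed. UMIs of the members were summed per library and scaled to CPM, with exact Poisson, binomial and conditional intervals (scipy 1.17.1). Ratios had 0.5 UMIs added and needed 20 UMIs over both libraries. TMM (edgeR 4.0.16) and DESeq2 1.42.0 size factors served for scaling only. Cells were thinned to 1000 UMIs where shares were compared, and doublets were scored with Scrublet in scanpy 1.11.5. The computation was tested on simulated data. Named genes were those of the lists described, the rule genes, the markers, and the 10 highest and 10 lowest ratios among genes at 200 CPM or more in a library. Members and lists were chosen with earlier results of these data known. Some named genes are not reported here. Promoters came from RefSeq and gene positions from GENCODE.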

Additional observations from a re-analysis of the deposited data

Results flagged for a closer look

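Cells outside the retained set also carried T cell transcripts. In 4T1P 9 cells and in 4T1M 13 cells met the T and NK gene rule but not the limits on gene number or mitochondrial share, and they entered no comparison. Of these, 7 and 10 were over the mitochondrial limit.

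Ly6e, an interferon-inducible member of the Ly6 family, went in opposite directions in the 2 libraries when T and NK cells were set against neutrophil-rule cells. The log2 ratio was 1.09 in 4T1P and -0.60 in 4T1M, and neither counting interval reached 0. Its level in T and NK cells was 148 and 118 CPM, and in neutrophil-rule cells 69.5 and 178 CPM. The difference between the libraries was not tested.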

How the results depend on the processing

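Of 277 alternative values for 27 results, 248 moved by less than their counting interval, or by under 1.5 times for counts. A mitochondrial limit of 5% lies below the members' median mitochondrial share in both libraries. With it the T and NK share was 2.35% in 4T1P and 0.872% in 4T1M, and the 4T1M delta share 12.5%. The log2 ratios were then 1.78 for Ly6c1 and 1.89 for Ly6c2. They were 0.20 for Ly6e and -0.37 for Ly6a, both of which turned direction. At 1000 UMIs per cell, for 4T1P and 4T1M, the CD8 share was 15.1% and 34.7%, the CD4 share 6.85% and 6.32%, and the share without a coreceptor UMI 72.6% and 51.6%; the 4T1M delta share was 1.05%. Fewer UMIs per cell leave fewer coreceptor UMIs by construction. Alternatives chosen after seeing the data follow. In the CD8 class alone the log2 ratio was 0.68 for Ly6c2 and -1.32 for Ly6e, and list medians were -0.89 for cytotoxic and -1.92 for proliferation genes. Outside it Ly6e stood at 0.78, and the medians were 0.77 for cytotoxic, 0.15 for checkpoint, 1.91 for proliferation and 0.0058 for activation genes, all 5 of the other sign than over all members. Of these, activation was close to 0 and included the Cxcl13 cell. Outside the CD8 class most 4T1M UMIs of Ly6e, and of Mki67, Top2a and Birc5, lay in 1 delta cell each. Without the highest cell of each gene, Ly6a stood at 1.47 and Ly6e at -0.97. The genes past 2-fold numbered 246 higher and 173 lower with DESeq2 size factors, and 2296 and 2191 with no filter beyond 1 UMI. For these the cause was not tested, except that the last tests more genes with few UMIs. Scrublet marked 69 and 200 barcodes, 1 and 2 of them T and NK cells. No paired analysis was possible because each condition was 1 library and no test was made.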

Other observations

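Variable segments of the T cell receptor were read in a minority of T and NK cells. Trbv genes gave 19 UMIs in 16 4T1P cells over 9 of 35 listed genes, and 26 UMIs in 19 4T1M cells over 8. Trav genes gave 29 UMIs in 22 cells over 17 of 128 listed genes, and 22 UMIs in 14 cells over 12.

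Xist, the RNA of the inactive X chromosome, was found in 45 of 73 4T1P T and NK cells, 61.6% (49.5 to 72.8%), and in 88 of 96 4T1M cells, 91.7% (84.2 to 96.3%). At 1000 UMIs per cell the shares were 42.5% and 67.4%. Ddx3y and Eif2s3y, on the Y chromosome, had 0 UMIs in all deposited cells of both libraries, Kdm5d had 2 in 4T1P and 5 in 4T1M, and Uty 1 in 4T1P.

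Ly6c2 was also read in cells placed by B cell genes, at 35.3 CPM in 2 of 33 4T1P cells and 194 CPM in 4 of 26 4T1M cells. Cxcl13 had 48 UMIs in 10 of all deposited 4T1P cells and 365 UMIs in 27 of all deposited 4T1M cells, 192 of them in the single T and NK-rule cell described above.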
